A study of Bos taurus with 252 samples.

Results

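T-bet (TBX21), EOMES, GATA3, FOXP3, BCL6, TCF7 and LEF1 are transcription factors that set or hold the fate of T cells, and their mRNA was followed here in the whole blood of feedlot steers. The genes were taken by name and known function, with earlier results of these data known but without a rule on their values, and they make up 7 of the 33282 genes in the count table. All 7 had enough counts to be among the 19056 genes tested.

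When a T-helper cell meets antigen, cytokine signals switch on a lineage-defining transcription factor. T-bet drives the interferon-producing Th1 fate, GATA3 the Th2 fate, FOXP3 the regulatory T cell fate and BCL6 the fate of follicular helper cells that assist B cells. EOMES is a T-box relative of T-bet found in cytotoxic T cells and natural killer cells. TCF7 and LEF1 encode related HMG-box factors that act downstream of Wnt signals and are high in naive and early memory T cells. Several of these genes are also read outside T cells: T-bet and EOMES in natural killer cells, and BCL6 in B cells and in myeloid cells of the blood.

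The samples were libraries from 42 crossbred steers, bled into RNA-stabilising tubes on day 0 and again on 5 later days (day 3, day 7, day 14, day 21 and day 56), with 1 library per steer and day. There were 7 groups of 6 steers: NC, which received no antimicrobial, and CEFT (ceftiofur), ENRO (enrofloxacin), FLOR (florfenicol), OXYT (oxytetracycline), TILD (tildipirosin) and TULA (tulathromycin). The drug was injected once on day 0 after that day's blood had been drawn, so the day 0 libraries of every group precede dosing. Every animal, NC included, had been given tildipirosin, a hormone implant, antiparasitics and vaccines at an earlier stage of rearing, and none was treated for disease during the study. Each group lived in a pen of its own, and on the later days the pens were sampled in a fixed order that began with NC and ended with OXYT. Pen, sampling order and treatment therefore cannot be told apart. All NC and ENRO libraries ran in sequencing lane 1, all TULA libraries in lane 2 and all CEFT and OXYT libraries in lane 3, whereas the FLOR and TILD steers were each divided over a pair of lanes. Only ENRO against NC lies wholly within 1 lane, and for CEFT, OXYT and TULA lane and treatment cannot be told apart.

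The libraries held 26073640 to 74110289 counted reads, with a median of 43608836. The least counted member was FOXP3, and its lowest count in any library was 136. Hemoglobin mRNA of 10 genes took up to 25.5% of the counts, and over 10% in 17 libraries. Its median share rose from 0.224% on day 0 to 3.36% on day 21. Levels are given as CPM, the count of a gene per 1e+06 counts of its library after TMM scaling, and are not corrected for gene length, so the level of one gene cannot be compared with that of another. Each value is 1 animal on 1 day, so the spread quoted is that between animals. In whole blood a lower level can mean fewer cells of a type or less mRNA per cell, and these cannot be told apart.

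Over the 56 days BCL6 fell steeply in nearly all steers, FOXP3, TCF7, LEF1 and GATA3 rose, EOMES dipped on day 14, and TBX21 moved least. In a fit that compares each steer with itself over the 6 days, 6 of the 7 genes changed at a false discovery rate (FDR) of 0.05, the exception being TBX21 (edgeR quasi-likelihood test, FDR = 0.0897). Change over time was the rule in these libraries, since 77.1% of all tested genes passed the same test. On day 56, 4 of the 7 genes stood higher than on day 0, against 32.5% of all genes, and 1 stood lower, against 30.7%. The corresponding counts were 4 higher and 1 lower on day 3 (20.6% and 18.3% of all genes), 4 and 1 on day 7 (24% and 19.7%), 4 and 2 on day 14 (32.7% and 30%), and 5 and 1 on day 21 (32.7% and 31.6%).

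**Figure D1:**
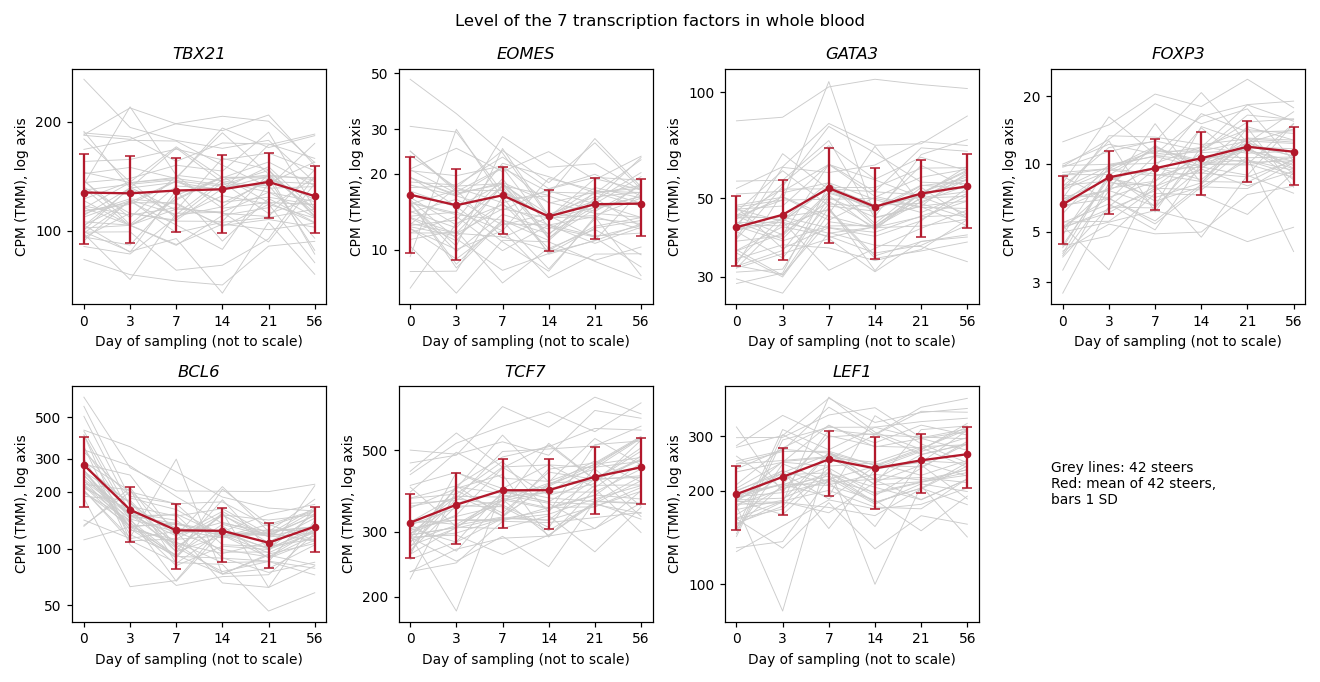
Level of each gene in CPM (log axis) by day of sampling. Grey lines are the 42 steers, and red points with bars are the mean and 1 SD. BCL6 starts at a mean of 278 CPM and reaches 107 on day 21, FOXP3 climbs from 6.62 to 11.9 CPM over the same days, and TBX21 stays between 125 and 136 CPM.

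T-bet mRNA was the steadiest of the 7. On day 0 the 42 steers ranged from 83.3 to 262 CPM with a median of 116. On day 21 they ranged from 90.7 to 209 CPM with a median of 134, and on day 56 from 75.8 to 185 CPM with a median of 119. The ranges of the days lay almost on top of each other, and no neighbouring days in the order of means (21, 14, 7, 0, 3, 56) differed by as much as 1 SD. The log2 differences from day 0 were −0.01 (day 3), 0.02 (day 7), 0.03 (day 14) and −0.01 (day 56), each with an SE of 0.05, and none passed the test. Only on day 21 did TBX21 pass, at 0.11 ± 0.05 (SE, FDR = 0.0249), higher in 26 of 42 steers. That call was kept in 8 of the 15 alternative fits.

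EOMES varied more between animals than between days. On day 0 it ranged from 7.07 to 47.3 CPM with a median of 15.3, the top value belonging to steer Tula8. On day 14, the lowest day, it ranged from 7.77 to 24.5 CPM with a median of 13.3. It fell by 0.26 ± 0.07 on the log2 scale (SE, FDR = 0.000362) between days 0 and 14, with 30 of 42 steers lower. From day 7 to day 14 it fell by 0.28 ± 0.07 (FDR = 0.000271), in a step where 47% of all genes changed. No other day passed against day 0. The nearest to the threshold was day 3, at −0.15 ± 0.07 (FDR = 0.0744), and days 7, 21 and 56 gave 0.01, −0.10 and −0.09 with the same SE. The ranges of all 6 days overlapped widely.

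GATA3, which besides the Th2 fate serves T-cell development, rose in a jagged course. Its levels ran from 28.7 to 82.9 CPM (median 41.4) on day 0, from 31.3 to 107 CPM (median 49.98) on day 7 and from 33.1 to 102 CPM (median 53.4) on day 56. The increase over day 0 reached 0.35 ± 0.04 (log2, SE, FDR = 6.63e-13) by day 7, slipped to 0.18 ± 0.04 (FDR = 9.68e-05) by day 14 and returned to 0.31 ± 0.04 (FDR = 5.09e-11) by day 21. It was greatest on day 56, at 0.38 ± 0.04 (FDR = 2.37e-15), when 39 of 42 steers were higher. The day 3 increase of 0.11 ± 0.04 passed narrowly (FDR = 0.0318) and was kept in 7 of the 15 alternative fits. Between successive days GATA3 rose by 0.24 from day 3 to day 7, dropped by 0.17 to day 14 and rose by 0.13 to day 21 (FDR = 3.16e-06, 0.000333 and 0.0317). The steps from day 3 to 7 and from day 14 to 21 changed 19.5% and 12.1% of all genes.

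FOXP3 showed the largest rise of the 7. Its levels ran from 2.68 to 12.5 CPM (median 6.67) on day 0 and from 4.53 to 23.7 CPM (median 11.8) on day 21. They still overlapped between days, because the animals differed so much, but 39 of 42 steers were higher on day 21 than they had been on day 0. The increase built up in steps, from 0.40 by day 3 to 0.53 by day 7, 0.68 by day 14 and 0.85 by day 21, which is 1.80-fold, and stood at 0.78 by day 56 (log2, SE 0.06 each). The largest FDR among these was that of day 3, 6.39e-08. By size of increase FOXP3 stood in place 670 of the 19056 genes on day 21. After day 21 no further change passed (−0.07 ± 0.06, FDR = 0.656).

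BCL6, a transcriptional repressor, took the opposite course. On day 0 it ran from 111 to 639 CPM with a median of 255, on day 3 from 62.7 to 348 CPM with a median of 149, and on day 21 from 46.5 to 201 CPM with a median of 105. Every one of the 42 steers was lower on days 14, 21 and 56 than on day 0, and 39 and 40 were lower on days 3 and 7. BCL6 fell by 0.78 ± 0.08 (log2, SE) by day 3 and fell by 1.15 ± 0.08 by days 7 and 14. By day 21 it fell by 1.36 ± 0.08, to a level 2.57-fold lower than on day 0 (FDR = 5.73e-37). On day 56 BCL6 was higher than on day 21 in 34 of 42 steers, by 0.29 ± 0.08 (FDR = 0.0107), in a step where 6.28% of all genes changed, and was still 2.09-fold below day 0. The spread between animals shrank as well, from an SD of 112 CPM on day 0 to 28.6 CPM on day 21. In the order of day means, days 0 and 3 were the only neighbours of any of the 7 genes that stood more than 1 SD apart.

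TCF7 and LEF1, the pair of naive and memory T-cell factors, rose together. TCF7 ran from 223 to 501 CPM (median 297) on day 0 and from 299 to 673 CPM (median 435) on day 56, and all 42 steers were higher on day 56. LEF1 ran from 128 to 321 CPM (median 186) on day 0 and from 142 to 397 CPM (median 248) on day 56, with 40 of 42 steers higher. The log2 increase of TCF7 was 0.15, 0.29, 0.29, 0.41 and 0.49 on the 5 later days in turn (SE 0.04 each), the last being 1.41-fold (FDR = 2.25e-27). That of LEF1 was 0.18, 0.37, 0.26, 0.35 and 0.42 (SE 0.05 each), the last being 1.33-fold (FDR = 1.01e-14). Between days 7 and 14 LEF1 dropped by 0.11 ± 0.05 (FDR = 0.0490) and TCF7 did not pass (FDR = 0.991), and the difference between the pair in that step was not tested.

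The cell markers of the blood moved over the same days. Of 14 T-cell markers, 13 were higher and 0 lower on day 56 than on day 0, and their summed level rose in 42 of 42 steers, from a median of 2602 CPM (2009 to 4203) on day 0 to 3777 CPM (2710 to 5508) on day 56. Of 8 tested neutrophil markers, 6 fell and 0 rose by day 21, when their sum was lower in 39 of 42 steers, at a median of 1357 CPM against 2559 CPM on day 0. CSF3R and FPR1, on the same list, were not found under those symbols, and CATHL1 was at 0 in 118 libraries. Of 10 monocyte markers, 9 fell and 0 rose by day 56. Of 10 B-cell markers, 7 rose and 2 fell, of 7 eosinophil and basophil markers 4 rose and 1 fell, and of 10 platelet markers 1 rose and 1 fell. Of 10 erythroid genes, 9 rose by day 21, when their sum reached a median of 35444 CPM (712 to 262069). The part of these cell markers in the changes of the 7 genes was not tested.

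Setting each gene against the markers within the same library gives the following description. TCF7 changed by 0.01 ± 0.21 (mean log2 change from day 0 to 56 ± SD between steers, n = 42) relative to the summed T-cell markers, and LEF1 by −0.07 ± 0.29, so both rose about as much as those markers did by day 56. By day 14 TCF7 and LEF1 had risen by 0.29 and 0.26, less than the 0.43 of the summed markers. GATA3 changed by −0.11 ± 0.28 and stood farthest below the markers on day 14, at −0.25 ± 0.26 with 36 of 42 steers lower. FOXP3 rose beyond the markers, by 0.41 ± 0.35 on day 21 and in 40 of 42 steers. TBX21 and EOMES lagged behind them by day 56, at −0.51 ± 0.38 with 37 of 42 steers lower and −0.57 ± 0.49 with 37 of 42 lower. BCL6 changed by −0.51 ± 0.49 relative to the summed neutrophil markers on day 21, lower in 36 of 42 steers. The sum of 15 cytotoxic genes fell in 32 of 42 steers by day 56, by 0.26 ± 0.38 on the log2 scale.

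**Figure D2:**
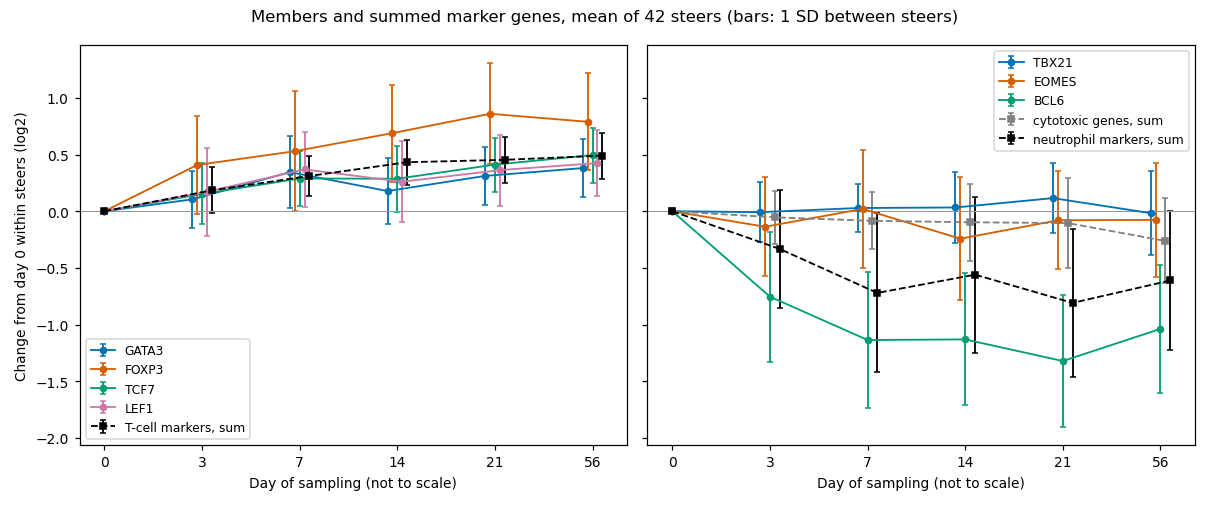
Mean log2 change from day 0 within steers for the 7 genes (colours) and for summed marker genes (dashed), with bars of 1 SD over 42 steers. TCF7 and LEF1 run close to the T-cell markers on day 56 and lie below them on day 14. GATA3 runs close to them on day 7 and lies 0.25 below them on day 14. FOXP3 lies above them, while BCL6 lies below the neutrophil markers on every later day.

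The rises and the fall of BCL6 were seen in every lane and, with 3 exceptions, in every group. In each of the 3 lanes, with 14 steers apiece, the mean changes of FOXP3, TCF7, LEF1 and GATA3 were above 0 and that of BCL6 was below 0 on all 5 later days. The same held in each of the 7 groups, except that GATA3, TCF7 and LEF1 had mean changes of −0.11, −0.05 and −0.06 in OXYT on day 3. Without the libraries over 10% hemoglobin, BCL6 still fell by 1.39 ± 0.09 on day 21 and FOXP3 rose by 0.85 ± 0.07. In the 6 NC steers alone, where 27.7% of all genes changed over the days, 4 of the 7 passed: BCL6, TCF7, FOXP3 and EOMES (FDR = 0.000851, 0.00521, 0.0295 and 0.0391). There BCL6 fell by 1.61 ± 0.29 by day 21 and TCF7 rose by 0.46 ± 0.09 by day 56 (FDR = 0.000888). On days 3 and 7 none of the 7 genes passed in the NC steers alone. The shares of all genes that passed there on those days are not given, so this cannot be read as an absence of early change.

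Among partners and targets of these factors, genes changed in both directions, as they did among all tested genes, of which 32.5% were higher and 30.7% lower on day 56 than on day 0. The counts of the lists that follow are small and are to be read against those shares. Of 23 other transcription factors that act with or against the 7, 9 were higher and 10 lower on day 56, with a median log2 change of −0.02 against 0.02 for all tested genes. With the smallest p over the days, ID3, an inhibitor of E-protein transcription factors, rose by 0.95 ± 0.07, ZEB2, which works beside T-bet in effector cells, fell by 0.74 ± 0.06 and STAT3 fell by 0.39 ± 0.04. The genes of each arm on day 56 are given next.

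Among 10 genes of the Th1 arm, 3 rose and 5 fell (median −0.21). CXCR3, a chemokine receptor that T-bet controls, rose by 0.41 ± 0.05, the cytokine gene TNF by 0.41 ± 0.03 and the interleukin-12 receptor gene IL12RB1 by 0.24 ± 0.04. Those that fell included the interleukin-12 receptor chain IL12RB2 (−0.55 ± 0.08), the interleukin-18 receptor genes IL18RAP (−0.54 ± 0.09) and IL18R1 (−0.55 ± 0.19), and CXCR6 (−0.13 ± 0.05). IFNG, the Th1 cytokine itself, gave −0.28 ± 0.23 and did not pass (FDR = 0.283).

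Among 7 tested genes of the Th2 arm, 4 rose and 0 fell (median 0.30). PTGDR2, the prostaglandin D2 receptor of Th2 cells, eosinophils and basophils, rose by 1.09 ± 0.07, the chemokine receptor CCR4 by 0.43 ± 0.05 and the common cytokine receptor chain IL2RG by 0.35 ± 0.03. The cytokine genes IL4, IL5 and IL13 were too low to test, never passing 0.257 CPM.

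Among 11 genes linked to regulatory T cells, 4 rose and 5 fell (median 0.07). TNFRSF18, the receptor GITR, rose by 0.70 ± 0.06, while IL2RA, the interleukin-2 receptor chain that FOXP3 maintains, fell by 0.71 ± 0.07. ENTPD1, the ectoenzyme CD39, fell by 0.42 ± 0.05.

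Among 9 tested genes of follicular helper cells, 4 rose and 3 fell (median −0.01). CD40LG, through which helper cells stimulate B cells, rose by 0.38 ± 0.04 and the checkpoint receptor gene PDCD1 by 0.20 ± 0.06, opposite in sign to BCL6, while TNFSF8 fell by 0.11 ± 0.03. IL21 was at 0 in 225 libraries.

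Among 12 naive and memory genes, 6 rose and 1 fell (median 0.14). NELL2 rose by 0.77 ± 0.07, the lymph node homing receptor CCR7 by 0.53 ± 0.06 and CAMK4 by 0.36 ± 0.05, in the direction of TCF7 and LEF1.

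Among 15 tested cytotoxic genes, 5 rose and 8 fell (median −0.39). The granzyme gene GZMA fell by 1.07 ± 0.10 and the natural killer receptor gene KLRD1 by 1.05 ± 0.11, but CST7, a cystatin of cytotoxic cells, rose by 0.55 ± 0.05. Among 7 tested genes of the Th17 arm, which has no member here, 1 rose and 4 fell (median −0.32). IL21R rose by 0.32 ± 0.05, IL1R1 fell by 0.32 ± 0.06 and CCR6 gave 0.01 ± 0.05 (FDR = 0.848), and IL17A, IL17F and IL22 never passed 0.137 CPM. GNLY was not found under that symbol.

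In 6 of the 7 genes the largest share of the variation belonged to the animal. Of the variance in log2 CPM over all libraries, differences between steers of one group took 52.95% for LEF1, 51.5% for GATA3, 51.3% for TCF7, 51.2% for EOMES, 49.2% for TBX21 and 38.1% for FOXP3. BCL6 stood apart at 20.1%, with 48.5% between days. The share between days was 28.9% for FOXP3, 24.3% for TCF7, 15.1% for LEF1, 14.7% for GATA3, 4.002% for EOMES and 1.74% for TBX21. The share between the 7 groups was at most 18.1%, for TBX21, followed by 9.74% for GATA3, and was 1.71% for LEF1.

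Some animals kept their place for the whole study. Steer Enro6 had the highest mean GATA3 of all 42, 97.9 CPM over its 6 libraries (82.9 to 109), ranked first or second on each day, while the next highest animal, Tild2, averaged 70.7 CPM. Ceft4 was first or second for FOXP3 on each day, with a mean of 17.9 CPM (12.5 to 23.7), and NC15 had the lowest mean, 5.33 CPM (4.53 to 6.22), so these animals did not overlap on any day. Tild2 had the highest means of both TCF7 (584 CPM) and LEF1 (339 CPM). Tild5 had the highest BCL6, 289 CPM on average, and ranked among the first 3 on each day. EOMES was less fixed: Tula8 had the highest mean, 26.01 CPM, but ranged from 13.4 to 47.3 CPM and ranked as low as place 19.

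**Figure D3:**
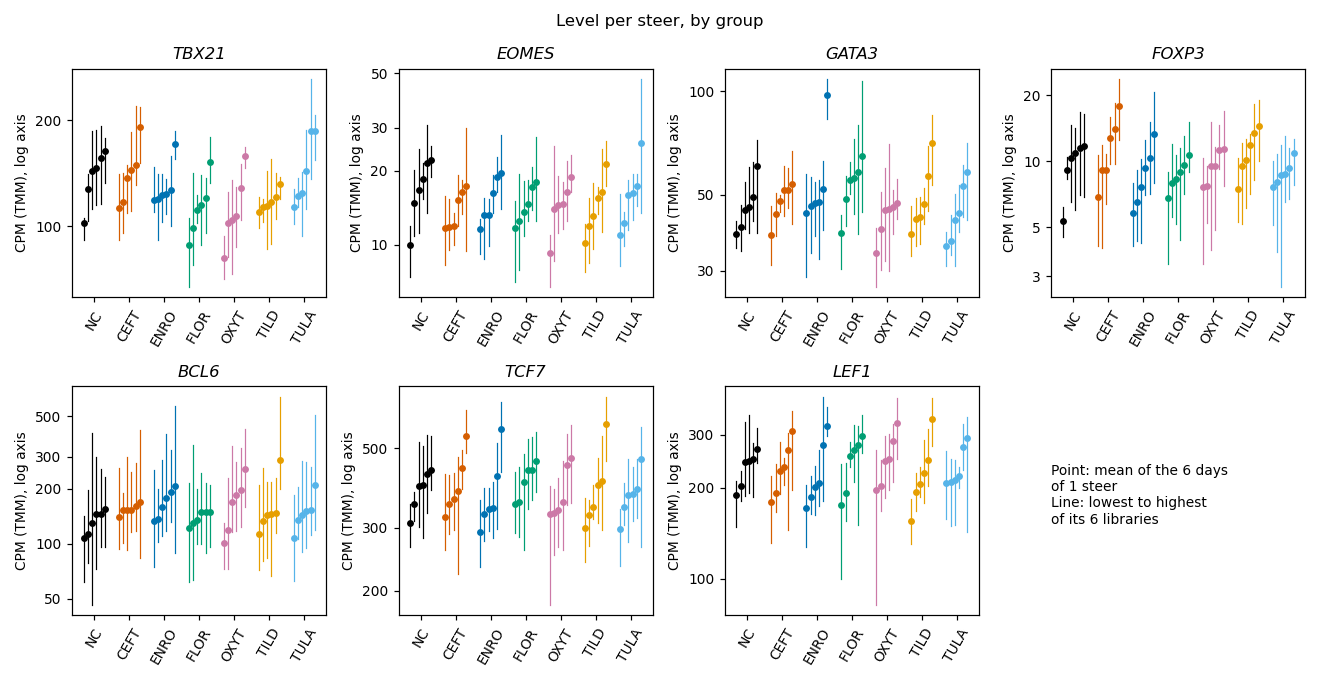
Level per steer in CPM (log axis), by group. Points are means of the 6 days of 1 steer and lines run from the lowest to the highest of its 6 libraries. GATA3 of steer Enro6 sits at 97.9 CPM above all others, and within each gene the points of the 7 groups overlap.

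Ordered by the mean over steers, the groups differed little compared with the animals in them. For TBX21 the order was TULA 146 ± 32.9 CPM (SD, n = 6), CEFT 142 ± 28.4, NC 140 ± 22.2, ENRO 130.5 ± 20.5, TILD 118 ± 7.96, FLOR 114 ± 21.96 and OXYT 113 ± 26.6. The step from ENRO to TILD was the only one between neighbours in any of the 7 genes that exceeded the smaller of their SDs. For BCL6 the order ran from OXYT at 172 ± 56.4 CPM to NC at 133 ± 19.3, and for EOMES from NC at 17.3 ± 4.57 CPM to CEFT at 14.1 ± 2.56. GATA3 ran from ENRO at 55.9 ± 20.7 CPM to OXYT at 42.9 ± 5.15, and FOXP3 from CEFT at 11.6 ± 4.02 CPM to FLOR at 8.72 ± 1.36. For TCF7 and LEF1 the highest and lowest groups differed by 1.09-fold and 1.10-fold.

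Treatments were set against NC in 36 comparisons, each of 6 treated with 6 NC steers on 1 day. Those on day 0 precede dosing, so they cannot show whether a drug changed these genes. None of the tests of the 7 genes in the 36 comparisons passed an FDR of 0.1, where 0.51% of all gene tests did (edgeR quasi-likelihood test). At an unadjusted p below 0.05 there were 28, of which 18 were higher and 10 lower in the treated steers. Of these, 2 were tests of EOMES on day 0. No share of all genes at that unadjusted p is given, so such counts, here and below, cannot be read as an excess. Of all the tests of the 7 genes, DESeq2 called 6 and edgeR's likelihood ratio test 1. The shares of all gene tests that DESeq2 and the likelihood ratio test called are not given here, so neither count can be read as an excess. In every test of the 7 genes the treated and NC ranges overlapped. All comparisons of a day share its 6 NC libraries.

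The smallest p was that of TBX21 in TILD on day 14. The TILD steers ranged from 88.8 to 119 CPM (median 106) and the NC steers from 104 to 192 CPM (median 149), with all 6 TILD steers below the NC median and only NC7 among the NC steers within the TILD range. The log2 difference was −0.53 ± 0.14 (SE, FDR = 0.179, edgeR). DESeq2 gave an FDR of 0.0271 and the likelihood ratio test 0.0775, both past the threshold. The T-cell markers summed to a median of 4020 CPM (3001 to 5063) in those TILD steers and 3830 CPM (3114 to 5097) in NC. The cytotoxic genes summed to 1540 CPM (1155 to 2039) in TILD and 1780.2 CPM (1071 to 2380) in NC, and the neutrophil markers to 2058 CPM (1594 to 2730.4) in TILD and 1232 CPM (927 to 2505) in NC. Their part in the difference was not tested.

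The smallest FDR was that of GATA3 in OXYT on day 3. The OXYT steers ranged from 26.95 to 43.5 CPM with a median of 32.9, and the NC steers from 41.6 to 61.2 CPM with a median of 43.2. Only Oxyt5 reached the NC range. The log2 difference was −0.44 ± 0.13 (SE, FDR = 0.137, edgeR), and DESeq2 gave an FDR of 0.0384. The T-cell markers summed to a median of 2506 CPM in those OXYT steers and 3204 CPM in NC. The neutrophil markers summed to 2796 CPM (1715 to 3134) in OXYT and 1639 CPM (1373 to 2079) in NC, and the monocyte markers to 3107 and 2588 CPM. Their part was not tested. On the preceding day 0, before dosing, the difference was −0.16 ± 0.11.

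BCL6 gave the most tests below an unadjusted p of 0.05, 12 of 36, all higher than in NC. On day 14 the NC steers stood at 65.6, 73.05, 82.4, 88.9, 95.7 and 117 CPM, the lowest mean of any group that day (87.0 ± 18.03, SD). The TULA steers stood at 98.9, 117, 119, 132, 152 and 163 CPM, so that only NC5 overlapped them. The FLOR steers ran from 70.9 to 207 CPM, the lowest of them inside the NC range. In all 6 treatments BCL6 was higher than in NC on that day at an unadjusted p below 0.05, by 0.46 to 0.76 on the log2 scale, but no FDR reached the threshold, and 0.0857% of gene tests did on day 14. The 6 differences share their NC steers, so they are not 6 separate observations. The neutrophil markers summed to a median of 1232 CPM in NC on day 14 and to 1526 to 2058 CPM in the 6 treated groups, and their part was not tested. On day 7 the differences in BCL6 were of both signs, from −0.54 to 0.17.

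EOMES was lower than in NC in all 6 treatments on days 0, 3 and 56. On day 0, before any drug, the NC steers stood at 11.005, 15.3, 20.6, 20.9, 24.6 and 30.8 CPM and the OXYT steers at 10.4, 12.5, 13.5, 14.2, 15.1 and 18.6 CPM, so the OXYT group started lower (−0.55 ± 0.22, unadjusted p = 0.0286). On day 3 the OXYT difference was −0.70 ± 0.25 (FDR = 0.2003) and on day 7 it was 0.35 ± 0.27 (FDR = 0.853). No difference in TCF7, LEF1 or FOXP3 passed with any of the 3 tools, and their log2 differences from NC lay between −0.42 and 0.60 over the 36 comparisons.

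**Figure D4:**
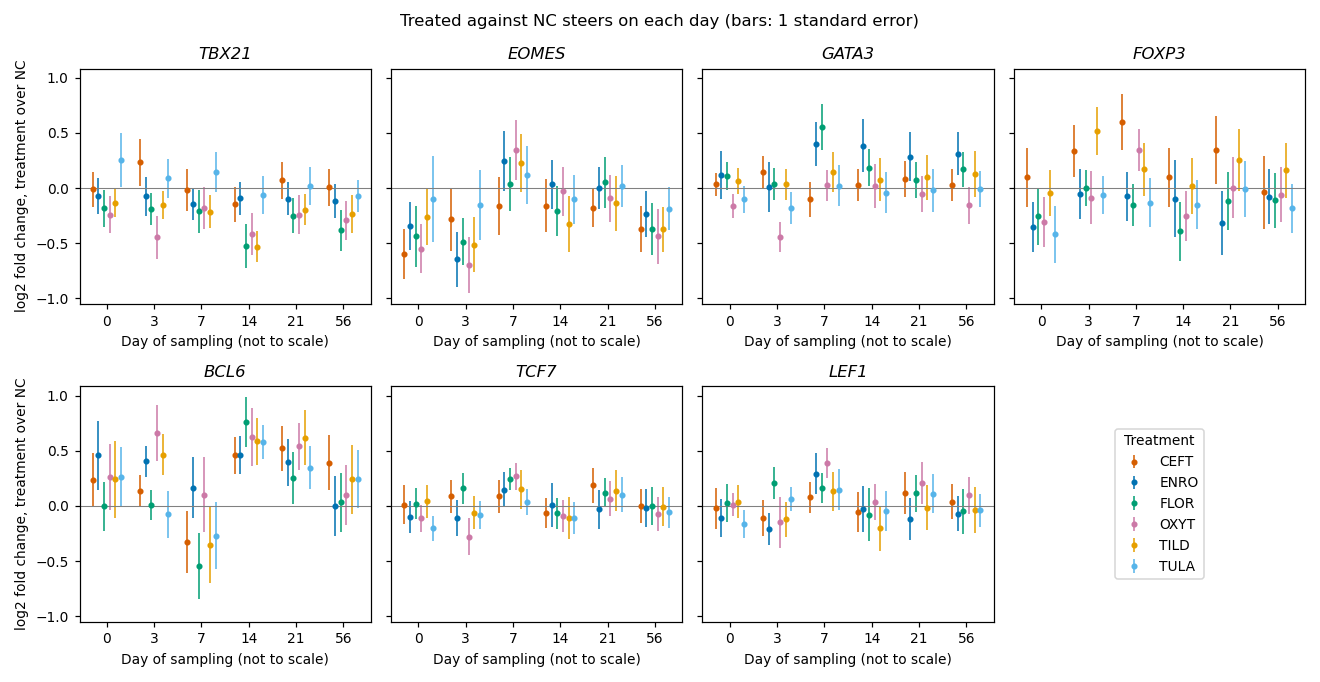
Log2 fold change of each treatment over NC on each day (edgeR), with bars of 1 standard error. The 6 points of a day share the same NC steers. On day 14 all 6 BCL6 points lie between 0.46 and 0.76, and all EOMES points lie below 0 on days 0, 3 and 56.

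Averaged over the 6 days with the steer as a random block (limma voom), none of the 42 tests of group against NC passed an FDR of 0.05, where 1.95% of all gene tests did, and 5 had an unadjusted p below 0.05. TBX21 was lower than in NC in OXYT (−0.32 ± 0.11, FDR = 0.192) and FLOR (−0.30 ± 0.11, FDR = 0.192), and in TILD (−0.23 ± 0.11, FDR = 0.219). BCL6 was above NC in all 6 treatments, by 0.13 to 0.38, and EOMES below it in all 6, at −0.07 to −0.27. These averages include day 0. On days 3 to 56 alone none passed either.

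Taking each steer's own day 0 as its baseline compares changes instead of levels. A difference between groups on day 0 then enters every change, as for EOMES, which was lower than in NC in all 6 treatments on day 0. For single days none of 210 tests of a member passed an FDR of 0.05 (edgeR quasi-likelihood test with a term for each steer), where 0.208% of all gene tests did, and 19 had an unadjusted p below 0.05, 17 of them positive. With limma voom the counts were 0 and 13, and without the steer term 0 and 2. Testing the 5 later days of a treatment together, 1 of 42 passed, EOMES in OXYT (FDR = 0.0202), against 2.14% of all gene tests.

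By day 7, but not on day 3, EOMES in OXYT stood above its day 0 level where NC had fallen. Between days 0 and 7 it went up in 6 of 6 OXYT steers, by 0.42 ± 0.31 (mean log2 change ± SD), reaching 10.9, 14.5, 19.1, 22.03, 23.3 and 25.2 CPM. It went down in 5 of 6 NC steers, with a mean change of −0.46 ± 0.48, to 7.41, 11.2, 13.1, 16.96, 20.4 and 21.5 CPM. On day 7 the ranges overlapped in part. The OXYT values of 22.03, 23.3 and 25.2 CPM lay above every NC steer, and the NC value of 7.41 CPM lay below every OXYT steer. The log2 difference in level between the groups was larger in size on day 0 than on day 7. The difference in change was 0.89 ± 0.24 on day 7, with an FDR of 0.310 for that day alone, and 0.50 ± 0.24 on day 14. Among the 72 libraries of these groups alone the FDR was 0.0216. Leaving out 1 steer at a time gave 0.0178 to 0.0883, above 0.05 without NC5 (0.0549), NC7 (0.0683), NC15 (0.0775), Oxyt4 (0.0714), Oxyt6 (0.0883) or Oxyt9 (0.0698). Beside EOMES, the test over all libraries called in OXYT the T-cell genes ZAP70 and BCL11B (2 of 14) and PDCD1 (1 of 9 follicular helper genes). It also called ALOX15 (1 of 7 eosinophil and basophil genes), and none of the 15 cytotoxic genes or of the other lists. The share of all genes called in OXYT alone is not given, so these counts cannot be read as an excess. The T-cell markers went from a median of 2489 to 3128 CPM in OXYT and from 3014 to 3424 CPM in NC between days 0 and 7. The neutrophil markers dropped over the same days from 2864 to 1095 CPM in OXYT and from 2201 to 1598 CPM in NC, and the monocyte markers from 2130.1 to 1709 CPM and from 2384 to 2059 CPM. Their part was not tested.

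Tested over all 6 treatments and 5 days together, the course over time differed among the 7 groups for GATA3 (FDR = 0.0121) and BCL6 (FDR = 0.0218). This test was passed by 25.9% of all genes and does not set NC apart from the rest. With 1 treatment against NC at a time neither gene passed, the smallest FDRs being 0.140 for GATA3 and 0.118 for BCL6. For GATA3 the groups differed most on day 7, when the mean log2 change from day 0 was 0.62 ± 0.39 (SD) in FLOR, 0.54 ± 0.26 in ENRO and 0.41 ± 0.14 in OXYT, with 6 of 6 steers up in each, 0.32 ± 0.33 in TULA, 0.27 ± 0.31 in TILD, 0.19 ± 0.28 in NC and 0.07 ± 0.17 in CEFT. Between days 0 and 7 the neutrophil markers moved from a median of 2315 to 1396 CPM in FLOR, 3066 to 1278 in ENRO, 2864 to 1095 in OXYT, 2735 to 1447 in TULA, 2686 to 2105 in TILD, 2201 to 1598 in NC and 2056 to 1530.0 in CEFT, and their part was not tested. ENRO ran in the same lane as NC, and its difference on day 7 was 0.34 ± 0.15 (FDR = 0.154). With limma voom GATA3 no longer passed (FDR = 0.155) and BCL6 did (FDR = 0.0435). For BCL6 the change from day 0 to day 14 was −1.41 ± 0.45 in NC and ran from −1.35 ± 0.68 in ENRO to −0.75 ± 0.81 in FLOR. On day 7 it ran the other way, −0.86 ± 0.98 in NC against −1.33 ± 0.61 in FLOR, a difference that did not pass (FDR = 0.926, edgeR). Between days 0 and 7 BCL6 rose in NC7, from 204 to 299 CPM, and fell in every other NC steer.

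The 7 genes were linked to different degrees. The closest pair was TCF7 and LEF1, with a Pearson's r of 0.86 over the 42 steer means (Spearman's rho 0.84) and 0.83 once the 2 steers lying farthest out were dropped, and of 0.81 over all libraries once steer and day means were removed. TCF7 was also linked to GATA3 (0.61, but 0.42 with its 2 outermost steers dropped), EOMES (0.60) and FOXP3 (0.52). TBX21 was tied to none of the others by more than 0.34 in size, that value being −0.34 with LEF1. The ratio of TCF7 to LEF1 within a library changed by 0.07 ± 0.17 on the log2 scale from day 0 to day 56, whereas that of FOXP3 to TBX21 rose by 0.81 ± 0.67, in 39 of 42 steers. The points of such correlations share libraries, scaling and the mixture of blood cells, and they are given as descriptions.

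**Figure D5:**
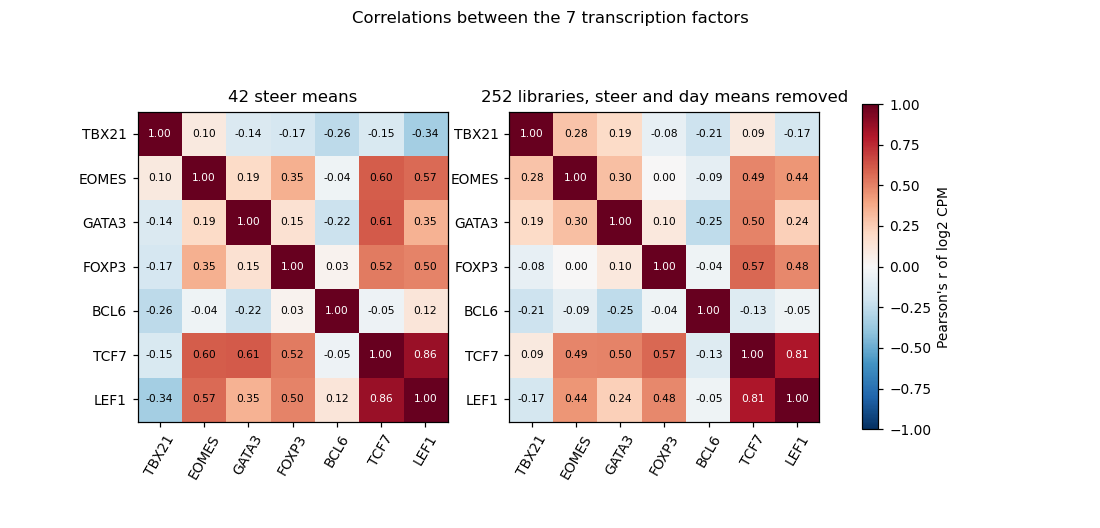
Pearson's r of log2 CPM between the 7 genes, over the 42 steer means (left) and over all libraries after removing steer and day means (right). TCF7 and LEF1 reach 0.86 and 0.81, and TCF7 with EOMES 0.60 and 0.49.

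Ranked over all tested genes by r across all libraries, the genes most like each factor were these. TBX21 was most like INPP5B (0.75), BATF (0.71) and TBKBP1 (0.68), and GATA3 like IL9R (0.79), ZAP70 (0.79) and WC1.3 (0.77), the last a scavenger receptor family gene of bovine gamma-delta T cells whose reads may be shared with near-identical copies. FOXP3 was most like DGKA (0.78), UBASH3A (0.74) and ACSF2 (0.72), and EOMES like PRKCH (0.75), SH3KBP1 (0.68) and UBASH3B (0.65). BCL6 was most like WDFY3 (0.90), KIAA1147 (0.87) and ANKFY1 (0.87). TCF7 was most like CDC25B (0.87), LEF1 (0.86) and PHC1 (0.85), and LEF1 like TCF7 (0.86), CAMK4 (0.85) and SIDT1 (0.82). With steer and day means removed these values were 0.48 to 0.85. Against the summed marker lists, TBX21 tracked the Th1 and cytotoxic genes within steer and day (r of 0.66 each).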

How the data were processed

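mRNA of whole blood was sequenced from stranded libraries. The authors trimmed reads with Trimmomatic 0.39, aligned them to ARS-UCD1.3 with HISAT2 (2.1.1 in the submitters' processing notes), assembled with StringTie 2.2.0 and wrote with prepDE.py3 (read length 150) the deposited gene counts, which are whole numbers derived from coverage and not normalised for length or library size. The libraries' strand was not set in alignment or assembly, which the methods give as run with default options, so reads of an antisense gene at a member's locus may be included. The counts were used as deposited, with 0 columns of samples left unused.

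The members, marker lists and gene lists were chosen with earlier results of these data known. Genes that exceeded 0.2 CPM in 12 or more libraries entered the tests, and TMM factors were computed (R 4.3.3, edgeR 4.0.16). Treated and NC steers of a day were compared with edgeR's quasi-likelihood test (FDR 0.1, over all genes of a comparison). Days were compared over all libraries with steer as a block, the pairing being the steer named in the labels, with the dispersion trend estimated on every 10th gene by abundance (FDR 0.05). The study's likelihood ratio test and mixed model were replaced by the quasi-likelihood test and by limma voom with steer as random block (limma 3.58.1). SE is the log2 fold change divided by the root of F. Log2 CPM in figures and correlations has a prior count of 2. For each factor the 3 genes of highest r were named, and of each list up to 3 genes with the smallest p over the days or in a treatment comparison that called a member. The latter rule does not cover IFNG, IL12RB2, IL18R1, IL18RAP and CXCR6, which were chosen after their values were seen. Alternatives were DESeq2 1.42.0, RLE factors, ComBat_seq by lane (sva 3.50.0), no filter, no hemoglobin genes, no steer block and groups left out. On simulated data with 200 genes changed by a fold of 2, 82% were recovered for a treatment on 1 day, 99.5% for days, 70% for a change from day 0 and 89% for a group effect. The simulated dispersion was the same for all genes, and the change from day 0 was equal on all later days, which were tested jointly. Smaller changes and single-day changes from day 0 were not simulated. RefSeq sequences were not used here.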

Additional observations from a re-analysis of the deposited data

Results flagged for a closer look

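In 22 combinations of gene, group and day (7.48% of all) 1 of 6 steers stood apart, the gap to its nearest neighbour passing Dixon's 95% critical value as a share of the group's range. Chance alone gives about 1 in 20 (5%). GATA3 accounted for 7 of 42, TCF7 and LEF1 for 4 of 42 each, FOXP3, EOMES and BCL6 for 2 of 42 each and TBX21 for 1 of 42.

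Steer Enro6 stood above the other ENRO steers in GATA3 on day 7 (103 CPM, next 62.5), day 14 (109 CPM, next 52.2), day 21 (105 CPM, next 54.5) and day 56 (102 CPM, next 61.6), and on day 3 in TCF7 (523 CPM) and LEF1 (297 CPM). Steer Tild2 stood above the other TILD steers on day 7 in GATA3 (81.5 CPM), TCF7 (657 CPM) and LEF1 (397 CPM), and on day 21 in EOMES (26.5 CPM). Steer NC15 stood below the other NC steers on day 21 in EOMES (9.11 CPM) and TCF7 (265 CPM), and on day 56 in FOXP3 (5.25 CPM). Steer Flor10 stood below the other FLOR steers on day 14 in FOXP3 (4.74 CPM) and LEF1 (100.1 CPM), and above them on day 0 in BCL6 (349 CPM).

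The single cases were TBX21 of Flor4 on day 0 (179 CPM, high), GATA3 of NC13 on day 3 (61.2 CPM, high) and of Ceft10 on day 0 (31.7 CPM, low), BCL6 of Tula8 on day 7 (67.6 CPM, low), TCF7 of Tula7 on day 7 (479 CPM, high) and LEF1 of NC7 on day 0 (245 CPM, high).

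By a test of the difference in change from day 0, the course over time of EOMES in OXYT differed from that in NC (FDR = 0.0202). This was 1 call in 42 tests of the members, against 2.14% of all gene tests. Without the steer block it did not pass (FDR = 0.757). Leaving out 1 steer at a time gave FDRs of 0.0178 to 0.0883, and OXYT had started below NC on day 0. In a test over all groups, which 25.9% of all genes passed, the course differed among them for GATA3 (FDR = 0.0121) and BCL6 (FDR = 0.0218). With limma voom GATA3 did not pass (FDR = 0.155) and BCL6 did (FDR = 0.0435). Without the steer block neither gene passed.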

How the results depend on the processing

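Treatment against NC on a day gave 0 member calls in the reported edgeR fit, 6 with DESeq2 (BCL6 in ENRO and OXYT on day 3 and in TULA on day 14, EOMES and GATA3 in OXYT on day 3, TBX21 in TILD on day 14) and 1 with the likelihood ratio test, and 0 with RLE factors, no filter, ComBat_seq, a lane term or no hemoglobin genes. For CEFT, OXYT and TULA lane and treatment cannot be told apart, so adjusting for lane may also take out a treatment difference. Without the steer as replicate block, the change from day 0 gave 0 calls in place of 1, and GATA3 and BCL6 over all treatments had an FDR of 1 and 0.920; 5 in place of 6 genes changed over the days. Signs reversed for TBX21 and EOMES alone, on days when the reported log2 difference from day 0 was at most 0.03 in size. TBX21 was 0.0203 without OXYT and 0.00945 without TULA on day 3, −0.000698 without ENRO on day 14, and 0.0607 in NC alone, 0.00743 without FLOR and 0.0198 without TULA on day 56. EOMES on day 7 was −0.46 in NC alone, −0.000921 without ENRO, −0.0605 without OXYT and −0.00695 without the block. Of the other single-gene values, 686 kept direction and call, 44 lost the call and 1 gained it (EOMES on day 3 without CEFT, −0.20). Over the 15 alternatives BCL6 on day 21 ran from −1.61 to −1.32 and FOXP3 from 0.56 to 0.90. The set without libraries over 10% hemoglobin was added after seeing the data. Not run were leaving out each steer in the day test, where no member was called, and the FDR of single-day changes with other scalings or filters. With 6 steers a group, the median SE of a treatment difference was 0.12 to 0.30 on the log2 scale.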
